A study of Mus musculus with 90 samples.

Results

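The genes described here are 8 transcription factors of the primitive streak, namely T (brachyury), Eomes, Mixl1, Gsc, Evx1, Lhx1, Mesp1 and Mesp2. They were chosen by name, with earlier results of these data known. All 8 were found among the 24961 genes of the embryoid body table and the 24984 genes of the neural table. The cells are J1 mouse embryonic stem cells edited in Cbx7, whose product recruits Polycomb repressive complex 1 (PRC1) to methylated histone H3 in these cells. The lines are CBX7-CaPS-R, CBX7-CaPS, CBX7-mCaPS, CBX7 KO and WT. CBX7-CaPS cells make a CBX7 that holds the CaPS domain (compaction and phase separation) of its paralog CBX2, and CBX7-mCaPS cells one with a mutated CaPS domain. All lines are J1 derivatives, their stem cells grew on mouse embryonic fibroblasts as feeders, which were taken off before harvest, and whether a line is a single clone is not given in the sources used here. Embryoid bodies (EB) were made in hanging drops for 4 days, moved to suspension and collected on days 0, 6 and 10. Neural progenitor cells (NPC) were made by aggregation without the cytokine LIF for 4 days and then with 5 uM retinoic acid, and were collected on days 0, 6 and 8. Ribosomal RNA-depleted total RNA gave 90 libraries in 30 groups, 3 in each (n = 3 for every group value below).

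The primitive streak forms on the posterior side of the mouse epiblast at gastrulation, and epiblast cells that pass through it leave the epithelium and become mesoderm and definitive endoderm. WNT, NODAL and BMP signals induce it. T and Eomes are T-box factors, and Eomes is needed for definitive endoderm and for the cells that will form the heart. Mixl1, Gsc, Evx1 and Lhx1 are homeodomain factors. Mesp1 and Mesp2 are basic helix-loop-helix factors that act just after the streak. Polycomb complexes cover many such developmental genes in stem cells, and embryoid bodies are a common culture model of gastrulation, whereas retinoic acid directs aggregates to neural fates.

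The genes lie at separate places in the mouse genome (build mm10) apart from the Mesp pair. T spans chr17:8434423-8442496 on the plus strand, Eomes chr9:118478189-118486132 (plus), Mixl1 chr1:180693048-180697034 (minus), Gsc chr12:104471209-104473236 (minus), Evx1 chr6:52313498-52318378 (plus) and Lhx1 chr11:84517975-84525534 (minus). Mesp1 at chr7:79792241-79793590 (minus) and Mesp2 at chr7:79810727-79813431 (plus) are neighbours that point away from each other.

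The RefSeq promoter table (GRCm38.p6) matched 7 of the 8 genes, and the 250 bases upstream of each start were searched on both strands for the cores of factors that act in the streak. AGGTGT, a T-box core, occurred in 3 of the 7 (T, Mesp1 and Evx1), against 11.8% of 32851 promoters of the same length. CTTTGA, a core of the WNT effectors TCF and LEF, occurred in 2 of the 7 (T and Mesp1), against 13.8% of all promoters. TGTNNATT, a core of the NODAL effector FOXH1, occurred in 0 of the 7, against 10.9% of all promoters. The 3 promoters with a T-box core are shown because T and Eomes are themselves T-box factors. Each is written 5′ to 3′ on the strand of its gene, and capitals mark every AGGTGT or CTTTGA, or its reverse complement ACACCT or TCAAAG.
T, chr17:8434173-8434422, plus strand: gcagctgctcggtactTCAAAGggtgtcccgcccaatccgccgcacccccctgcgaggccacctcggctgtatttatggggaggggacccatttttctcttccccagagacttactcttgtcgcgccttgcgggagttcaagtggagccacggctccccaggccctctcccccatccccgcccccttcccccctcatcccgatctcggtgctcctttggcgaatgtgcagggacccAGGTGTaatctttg
Mesp1, chr7:79793591-79793840, minus strand: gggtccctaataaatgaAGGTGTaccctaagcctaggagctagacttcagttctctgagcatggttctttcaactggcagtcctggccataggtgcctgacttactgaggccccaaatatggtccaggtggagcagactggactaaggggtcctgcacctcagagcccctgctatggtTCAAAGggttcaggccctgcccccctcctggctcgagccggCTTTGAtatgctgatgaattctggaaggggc
Evx1, chr6:52313248-52313497, plus strand: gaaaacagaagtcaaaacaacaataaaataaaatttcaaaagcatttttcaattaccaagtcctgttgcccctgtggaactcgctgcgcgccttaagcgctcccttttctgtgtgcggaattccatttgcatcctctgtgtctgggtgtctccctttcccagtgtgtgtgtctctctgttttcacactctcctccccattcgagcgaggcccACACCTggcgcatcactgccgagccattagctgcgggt
Counted in bases from the start of the gene, the first letter of the T-box core of T is at −14 and that of its TCF core, on the opposite strand, at −234. In Mesp1 the T-box core is at −233 and TCF cores are at −72 (opposite strand) and −31. In Evx1 the single T-box core, on the opposite strand, is at −38. The windows of Eomes, Gsc, Lhx1 and Mesp2 held none of the 3 cores. These matches describe letters in a window and no binding was measured here.

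Each EB library of the 4 lines CaPS, mCaPS, KO and WT held between 10.6 and 55.9 M counts, and each NPC library between 11.8 and 59.3 M. For CaPS-R, held in separate tables with part of the genes, they were 11.04 to 110.0 M in EB and 11.7 to 29.1 M in NPC. The ribosomal RNA precursor Rn45s took 2.73% to 88.7% of the counts of the 4 lines in EB and 4.24% to 50.3% in NPC. The 6 EB libraries of CaPS and WT numbered 1 stood apart: even numbers made up 42.1% to 43.5% of their counts of 1 to 20, against 73.5% to 94.1% in the other 30. Results from the EB series were therefore also computed without these 6. The glycolytic gene Gapdh set libraries apart too, with 18.6 to 41.2 CPM outside Rn45s in all mCaPS and KO libraries of EB, but 79.7 to 623 CPM in CaPS and WT libraries numbered 2 or 3, 5.11 to 13.2 CPM in those numbered 1, and 13.6 to 53.6 CPM in NPC. In EB this difference cannot be told apart from that of mCaPS or KO to CaPS or WT, nor from that of WT NPC to WT EB. The libraries labelled KO did not show less Cbx7, averaging 96.98 ± 12.5 CPM in EB libraries labelled KO and 112 ± 30.3 CPM in WT on day 0 (SD, log2 difference −0.20, adjusted p = 0.97). A gene count does not show whether the protein is made, so these libraries are called by their label. Levels are CPM (counts scaled to the total of each library) after TMM scaling, changes are log2 ratios with their standard error (SE), and a gene was called changed at a Benjamini-Hochberg adjusted p below 0.05 in edgeR's quasi-likelihood test over all genes tested. The labels do not say that libraries of a group came from separate cultures, so the p-values measure the spread between these libraries, which may be technical. In these bulk samples more cells of a type and more RNA per cell cannot be told apart.

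In WT embryoid bodies 4 of the 8 genes rose between day 0 and day 6, where 7.88% of 17791 genes tested changed and 3.26% rose. They were Lhx1, Mixl1, Gsc and Eomes. The median change of the 8 genes was 2.90 on the log2 scale, beside −0.02 over all genes tested. The 3 day-6 libraries were far apart, with replicate 1 the lowest and replicate 2 the highest for 8 of the 8 genes.

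Eomes, the T-box factor of the anterior streak, had 7.18, 9.29 and 5.63 CPM in WT EB on day 0, 8.27, 155 and 38.5 CPM on day 6, and 10.2, 37.0 and 58.7 CPM on day 10. Day 6 replicate 1 lay inside the day 0 range and the other two lay above it. The rise by day 6 was 3.19 (SE 0.88, adjusted p = 0.021). T, whose product is needed for mesoderm formation and the notochord, had 14.4, 6.13 and 9.31 CPM on day 0, 2.48, 129 and 15.3 CPM on day 6, and 61.7, 54.4 and 106 CPM on day 10. Its day 6 libraries lay on both sides of the day 0 range, and its log2 change of 2.30 did not pass the test (SE 1.19, adjusted p = 0.28). The 3 day-10 values were all above the 3 day-0 values.

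Mixl1, a paired-type homeodomain factor of the streak, had 0.831, 0.446 and 1.17 CPM in WT on day 0, 0.281, 33.8 and 5.46 CPM on day 6, and 3.20, 3.65 and 10.7 CPM on day 10. Its rise by day 6 was 3.99 (SE 1.20, adjusted p = 0.036), with replicate 1 of day 6 below every day 0 library. Gsc, a marker of the organizer, had 0.475, 0.446 and 0.265 CPM on day 0, 0.450, 12.2 and 3.58 CPM on day 6, and 3.07, 5.41 and 5.91 CPM on day 10, a rise of 3.81 by day 6 (SE 1.17, adjusted p = 0.039). The day 6 values of both genes overlapped those of day 0 through replicate 1 alone. Evx1, a homeodomain factor of the posterior streak, had 0.237, 0.595 and 0.949 CPM on day 0, 0.281, 8.70 and 2.34 CPM on day 6, and 2.49, 2.75 and 9.64 CPM on day 10. Its log2 change of 2.60 by day 6 did not pass (SE 0.86, adjusted p = 0.058).

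Lhx1, a LIM-homeodomain factor of the anterior streak and node, had 0.297, 1.19 and 0.640 CPM in WT on day 0, 0.394, 70.3 and 28.2 CPM on day 6, and 16.8, 32.7 and 83.0 CPM on day 10. Its rise of 5.50 by day 6 was the largest of the 8 (SE 1.29, adjusted p = 0.0060). Mesp1, which marks the earliest heart progenitors, had 0.119, 0.929 and 0 CPM on day 0, 0.113, 2.07 and 0.262 CPM on day 6, and 12.9, 4.04 and 13.7 CPM on day 10. All 3 day-10 libraries stood above all 6 earlier ones, and the change between day 6 and day 10 was 3.63 (SE 1.35, adjusted p = 0.065). Mesp2, which acts in the segmentation of somites, stayed between 0.281 and 2.94 CPM in all WT EB libraries. In CPM per kilobase of gene model, T was the highest of the 8 in WT EB on each day (4.86 ± 2.03, 23.9 ± 34.0 and 36.2 ± 13.7 on days 0, 6 and 10, SD), and Eomes was next on days 0 and 6 and Lhx1 on day 10, with neighbours in the order within an SD of each other on day 6 and Lhx1, Mesp1 and Eomes within an SD of each other on day 10.

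**Figure D1:**
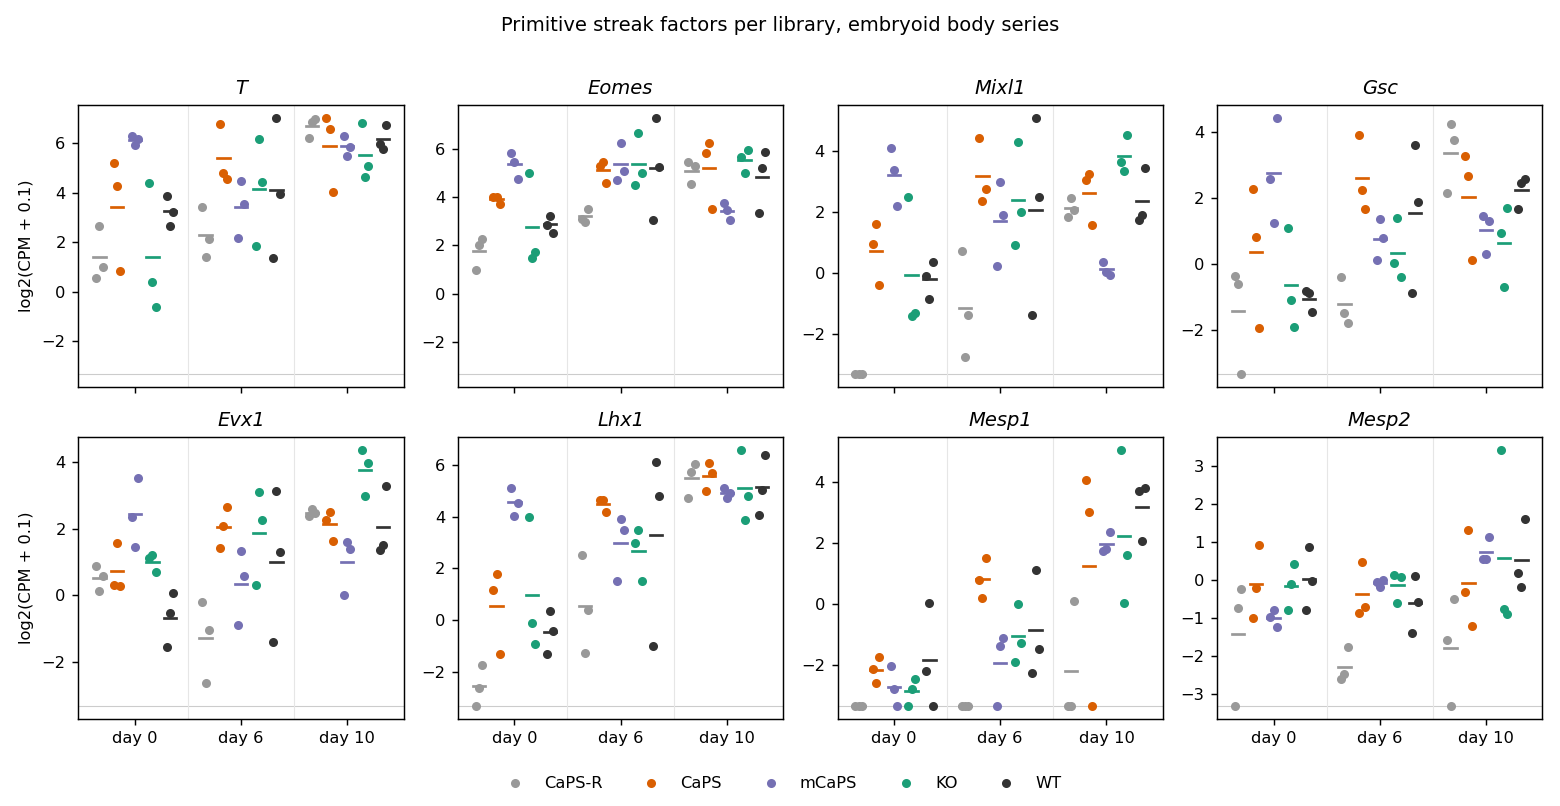
Levels of the 8 genes in each EB library, as log2 of CPM plus 0.1, by day; within a day the lines run CaPS-R, CaPS, mCaPS, KO, WT, bars are group means of 3 libraries and the grey line marks 0 CPM. The WT libraries of day 6 spread over most of the range of the Lhx1 panel (0.394 to 70.3 CPM), and Mesp1 is highest on day 10.

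The day 6 calls rest on few libraries. Without WT day 6 replicate 2 the changes were 1.65 for Eomes, 1.81 for Mixl1 and 2.39 for Gsc (adjusted p = 0.31, 0.45 and 0.28), and these 3 calls were also lost without any 1 of the day 0 libraries (adjusted p from 0.062 to 0.16) and that of Gsc without day 6 replicate 3 (adjusted p = 0.054). The call of Lhx1 held without each of the 6 WT libraries. In a fit of these 6 libraries alone none of the 4 was called (adjusted p from 0.070 to 0.14), and with no filter on low counts Mixl1 and Gsc were not (adjusted p = 0.059 and 0.057). Replicates 1, 2 and 3 of WT day 6 held 8.49, 623 and 193 CPM of Gapdh, whose part in these values was not tested. Replicate numbers of WT paired across EB days, and with the replicate block Gsc (3.35, adjusted p = 0.039) and Lhx1 (5.07, adjusted p = 0.0051) stayed called, whereas Eomes (2.44, adjusted p = 0.074) and Mixl1 (3.23, adjusted p = 0.15) did not. Without the 6 libraries that stood apart all 4 stayed called, at 3.69 for Eomes, 4.54 for Mixl1, 4.48 for Gsc and 5.77 for Lhx1 (adjusted p = 0.024, 0.039, 0.030 and 0.0095). This setting leaves out day 6 replicate 1, the lowest for 8 of the 8 genes, and keeps replicate 2, so it favours these calls. Feeder cell markers fell in the same comparison, 12 of 12 by the test, where 7.88% of genes changed. Their summed levels were 17.3 to 50.3 CPM on day 6 and 341 to 3021 CPM on day 0. The part of these markers in the result was not tested.

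Between day 6 and day 10 in WT EB, 0 of the 8 genes changed, where 16.2% of genes did; 1 had an unadjusted p below 0.05 and DESeq2 called 0. With the replicate block, which the pairing of these libraries allows, Mesp1 rose by 4.77 (adjusted p = 0.034), and without WT day 6 replicate 2 by 5.68 (adjusted p = 0.032). The heart and lateral mesoderm list rose over the same days, 10 of 10 by the test, among them Mef2c (6.47), Hand1 (7.37) and Hand2 (7.74), regulators of heart development.

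The other EB lines gave few calls over time. In CaPS 0 of 8 changed by day 6 (6.01% of genes; 3 had an unadjusted p below 0.05 and DESeq2 called Lhx1 alone) and 0 of 8 between days 6 and 10 (7.79% of genes, unadjusted 0, DESeq2 0). Lhx1 in CaPS had 2.14, 3.33 and 0.300 CPM on day 0, 25.1, 25.1 and 18.2 CPM on day 6 and 32.0, 67.6 and 52.1 CPM on day 10. Each day of CaPS lay above the one before without overlap, and the change by day 6 was 3.60 (adjusted p = 0.061), or 3.81 with the replicate block, which pairs here (adjusted p = 0.015). In mCaPS 0 of 8 changed by day 6 (10.7% of genes, unadjusted 3, DESeq2 2, which were Gsc and Evx1). In libraries labelled KO the count by day 6 was also 0 (7.25% of genes, unadjusted 1, DESeq2 0). Its day 0 replicate 1 was high, with 20.7 CPM of T against 1.23 and 0.551 CPM in the other two. Without it Eomes rose by 4.12, Mixl1 by 4.85 and T by 5.18 (adjusted p = 0.0073, 0.026 and 0.030).

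The levels behind these counts follow, and 0 of 48 EB tests of a line against WT in its change over time passed. T in mCaPS had 77.0, 59.7 and 72.03 CPM on day 0, 4.38, 22.3 and 11.7 CPM on day 6 and 77.4, 44.6 and 57.5 CPM on day 10, with day 6 below both other days in all libraries. These changes, −2.45 by day 6 and 2.23 from day 6 to day 10, did not pass (adjusted p = 0.20 and 0.16). In fits of the compared groups alone both were called (adjusted p = 0.046 and 0.036). T in CaPS had 36.3, 19.4 and 1.66 CPM on day 0, 110, 27.9 and 23.5 CPM on day 6 and 127, 94.8 and 16.2 CPM on day 10, and T in libraries labelled KO had 3.47, 71.8 and 21.5 CPM on day 6 and 113, 24.4 and 33.6 CPM on day 10. In CaPS the 3 days overlapped, and in libraries labelled KO day 6 overlapped both other days while day 10 lay above day 0. Eomes in mCaPS had 56.9, 44.4 and 27.2 CPM on day 0, 26.4, 75.3 and 34.2 CPM on day 6 and 13.4, 11.004 and 8.28 CPM on day 10, where all 3 libraries lay below those of both earlier days. Mixl1 in mCaPS had 17.0, 10.2 and 4.47 CPM on day 0, 1.07, 7.83 and 3.63 CPM on day 6 and 1.18, 0.929 and 0.851 CPM on day 10. The changes of Eomes (−2.06) and Mixl1 (−2.07) between day 6 and day 10 of mCaPS did not pass (adjusted p = 0.065 and 0.16). DESeq2 called Eomes (adjusted p = 0.029), and so did the fit without the 6 libraries that stood apart (adjusted p = 0.041). In a fit of these 2 groups alone Eomes and Mixl1 were called (adjusted p = 0.014 and 0.032). No other setting called either gene. On EB day 6 replicate 1 was the lowest of its group in 22 of 32 cases of gene and line.

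Mesp1 was called between day 6 and day 10 in mCaPS and in libraries labelled KO, and not in CaPS or WT (adjusted p = 0.30 and 0.065). The change minus that of WT was 0.52 in mCaPS (SE 1.81), 1.10 in libraries labelled KO (SE 1.77) and −1.38 in CaPS (SE 1.78). None of these differences between lines passed. In mCaPS Mesp1 had 0, 0.288 and 0.361 CPM on day 6 and 3.20, 3.39 and 4.99 CPM on day 10. This was a rise of 4.15 (SE 1.42, adjusted p = 0.026), and Mesp1 was the only 1 of the 8 called there (29.1% of genes changed, 16.2% rose). The call was lost without day 10 replicate 3 or any 1 day 6 library (adjusted p from 0.054 to 0.10). In libraries labelled KO it had 0.171, 0.893 and 0.316 CPM on day 6 and 32.7, 0.926 and 2.93 CPM on day 10, a rise of 4.73 and again the only call (adjusted p = 0.031; 9.07% of genes changed, 6.36% rose). There the second day 10 library was close to the highest day 6 library. Without day 10 replicate 1 the change was 2.06 (adjusted p = 0.47), without any 1 day 6 library the adjusted p was 0.057 to 0.14, with only these 2 groups or with no filter it was 0.072 and 0.051, and with the replicate block, which pairs here, it was 3.77 (adjusted p = 0.14). CaPS had 16.5, 7.88 and 0 CPM on day 10.

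CaPS-R was read from its own table of 9 EB libraries. T had 1.38, 6.199 and 1.89 CPM on day 0, 10.6, 2.51 and 4.26 CPM on day 6, and 73.6, 116 and 126 CPM on day 10. Eomes had 1.89, 4.01 and 4.73 CPM on day 0, 8.52, 7.77 and 11.4 CPM on day 6 and 43.5, 23.5 and 39.0 CPM on day 10, 3 ranges that did not overlap. Mesp1 and Mesp2 passed no filter on low counts here, which left 6 genes. By day 6, 3 of these 6 rose, where 11.2% of 13057 genes changed and 5.38% rose: Eomes by 1.34 (SE 0.34, adjusted p = 0.024), Lhx1 by 4.37 (SE 1.139, adjusted p = 0.026), and Mixl1, which had 0 counts in all 3 day-0 libraries and 1.54, 0.0464 and 0.287 CPM on day 6. Against a floor of 3 counts per library Mixl1 was at least 4.13-fold higher on day 6, a bound carried by replicate 1, without which it was 1.103-fold. These 3 calls depend on single libraries. Lhx1 was lost without any 1 day 0 library or day 6 replicate 1 (adjusted p from 0.059 to 0.11) and with no filter on low counts (0.16), Eomes without 5 of the 6 libraries (0.051 to 0.11) and Mixl1 without 5 of the 6 (0.064 to 0.13).

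Between day 6 and day 10, 5 of the 6 rose in CaPS-R, where 11.3% of genes changed and 7.73% rose. They were Gsc (5.01, adjusted p = 0.0040), Lhx1 (4.41, adjusted p = 0.0044), T (4.20, adjusted p = 0.00081), Evx1 (3.84, adjusted p = 0.0070) and Eomes (1.95, adjusted p = 0.0030). All 5 stayed called when any 1 library was left out, and with no filter on low counts Lhx1 was lost (4.41, adjusted p = 0.055). Gsc had 0.673, 0.263 and 0.191 CPM on day 6 and 4.35, 18.8 and 13.4 CPM on day 10 of CaPS-R. The CaPS-R and WT values come from tables scaled separately and were not tested against each other.

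In the neural series the genes other than Lhx1 were lowest after day 0. In WT 4 of the 7 tested genes fell by day 6, where 37.3% of 17818 genes changed and 18.2% fell: T, Eomes, Evx1 and Mixl1. Mesp1 did not pass the filter on low counts, with 0 to 0.189 CPM in the NPC libraries of the 4 lines. The median change of the 7 was −3.17, beside 0.01 over all genes tested.

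T had 22.1, 0.260 and 25.7 CPM in WT NPC on day 0, 0.381, 0.235 and 0.191 CPM on day 6 and 0, 0.135 and 0.225 CPM on day 8. Day 0 replicate 2 was already in the range of day 6, and the change by day 6 was −5.87 (SE 1.303, adjusted p = 0.00080). Eomes had 25.4, 4.37 and 20.1 CPM on day 0, 0.653, 1.62 and 1.40 CPM on day 6 and 0.178, 0.646 and 0.826 CPM on day 8, with no overlap between day 0 and day 6 (−3.76, SE 0.74, adjusted p = 0.00023). Mixl1 had 0.851, 0.572 and 6.16 CPM on day 0 and 0.381, 0.141 and 0.318 CPM on day 6 (−3.17, SE 1.09, adjusted p = 0.023). Evx1 had 3.32, 0.728 and 0.797 CPM on day 0, 0.163, 0.141 and 0.127 CPM on day 6 and 1.13, 0.969 and 1.73 CPM on day 8 (−3.45 by day 6, SE 1.299, adjusted p = 0.036). Evx1 was thus above its day 6 range again in all 3 day-8 libraries, by 3.11, which did not pass (SE 1.29, adjusted p = 0.14). Outside the streak Evx1 is known in ventral interneurons of the spinal cord. Gsc had 1.45, 0.0520 and 1.305 CPM on day 0 and 0.163, 0.0469 and 0.318 CPM on day 6 (−2.40, adjusted p = 0.094), and Mesp2 changed by −0.49 (adjusted p = 0.55).

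The calls of T and Eomes by day 6 of WT NPC held without each of the 6 libraries. Mixl1 was lost without day 0 replicate 3 (−1.34, adjusted p = 0.36) or day 6 replicate 2 or 3 (adjusted p = 0.092 and 0.055). Evx1 was lost without day 0 replicate 1 (−2.39, adjusted p = 0.18) or any 1 day 6 library (0.079 to 0.098). Replicate 2 of day 0 was the lowest of its group in 22 of 32 cases of gene and line. Feeder markers also fell in WT NPC, 11 of 12 by the test, where 37.3% of genes changed and 18.2% fell. Their summed levels were 79.0 to 174 CPM on day 6 and 330 to 3291 CPM on day 0. The part of these markers in the fall was not tested.

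The fall was called in the other lines too, for some of the genes. In CaPS 5 of 7 genes fell (39.2% of genes changed, 19% fell): T by 7.40, Mixl1 by 4.95, Eomes by 4.75, Gsc by 4.55 and Evx1 by 3.80 on the log2 scale (adjusted p = 0.00016, 0.0018, 2.5e-05, 0.0040 and 0.023). Evx1 was lost there without day 0 replicate 1 or day 6 replicate 1 or 2 (adjusted p = 0.071, 0.082 and 0.069) and with only these 2 groups (0.069). In mCaPS T fell by 7.32, Mixl1 by 4.36 and Eomes by 4.06 (adjusted p = 0.00012, 0.0036 and 0.00011), and Lhx1 rose, which made 4 of 7 changed (39.2% of genes; 18.8% fell and 20.4% rose). In libraries labelled KO T fell by 4.75, Eomes by 2.69 and Evx1 by 5.04 (adjusted p = 0.0044, 0.0051 and 0.0076), and Lhx1 rose, 4 of 7 again (28.9% of genes; 14.3% fell and 14.6% rose). The Evx1 call there rested on day 0 replicate 3, with 5.35 CPM against 0.112 and 0.329 CPM. Without that library the Evx1 change was −1.96 (adjusted p = 0.31), and the T call was narrowly lost (−3.22, adjusted p = 0.0504). In CaPS-R Eomes fell by 2.997 (adjusted p = 0.042) and Lhx1 rose, 2 of the 4 genes tested (37.2% of 12763 genes changed, 17.1% fell and 20.1% rose). The Eomes call was lost without 5 of the 6 libraries (adjusted p from 0.059 to 0.15). T (−1.57) and Evx1 (−2.89) did not pass in CaPS-R (adjusted p = 0.34 and 0.11). Evx1 in mCaPS (−2.09, adjusted p = 0.16) and Mixl1 in libraries labelled KO (−2.06, adjusted p = 0.15) did not pass either, nor did Gsc in these lines.

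**Figure D2:**
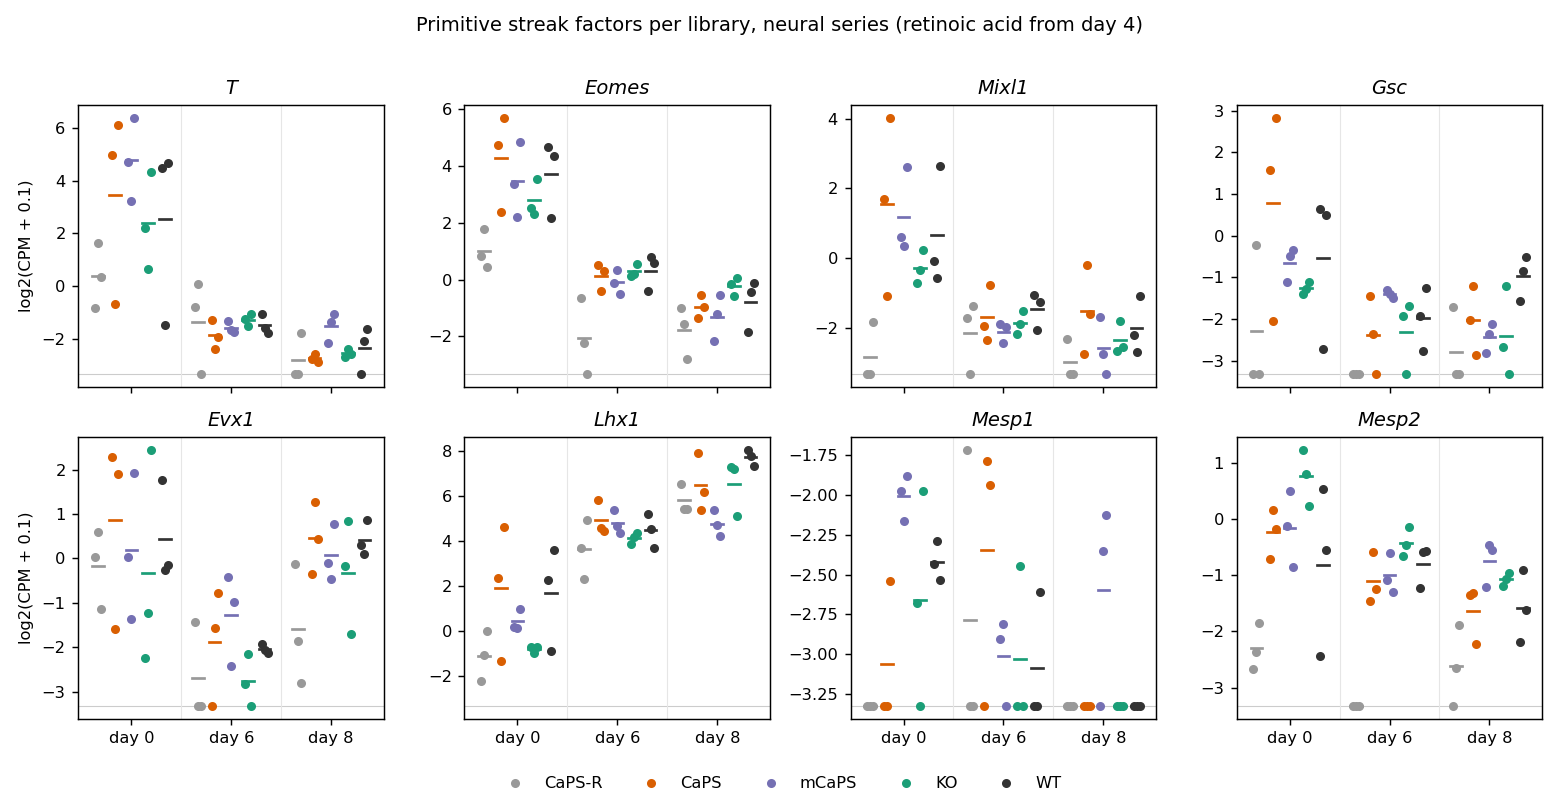
Levels of the 8 genes in each NPC library, drawn as for EB on days 0, 6 and 8. On days 6 and 8 T, Eomes, Mixl1 and Gsc are low in every line. T is at 0 to 0.957 CPM and Eomes at 0 to 1.62 CPM, whereas Lhx1 is at 4.84 CPM or more in all libraries of those days.

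Lhx1 went the other way in NPC. Besides the streak, it is known as a factor of spinal interneurons and of the kidney. WT had 4.76, 0.442 and 11.998 CPM on day 0, 35.9, 23.0 and 12.8 CPM on day 6, and 262, 220 and 158 CPM on day 8, each day above the one before. By day 6 the WT change of 2.07 did not pass (SE 0.88, adjusted p = 0.064), and without day 0 replicate 3 it was 3.25 (adjusted p = 0.019). Lhx1 rose by day 6 in mCaPS (4.47, SE 0.99, adjusted p = 0.00072), in libraries labelled KO (5.19, adjusted p = 0.00052) and in CaPS-R (5.40, adjusted p = 0.0012), and these 3 calls held without each library. In CaPS its change of 1.77 did not pass (adjusted p = 0.11), and without day 0 replicate 3, at 24.7 CPM, it was 3.69 (adjusted p = 0.0052).

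Between day 6 and day 8 of WT NPC Lhx1 was the only 1 of 7 genes that changed (7.34% of genes; 4.59% rose), a rise of 3.16 (SE 0.90, adjusted p = 0.029). That call was lost without any 1 day 6 library or day 8 replicate 1 or 2 (3.51, 3.13, 2.78, 2.90 and 3.14, adjusted p from 0.053 to 0.15) and with no filter on low counts (3.09, adjusted p = 0.053). In the same days 0 of 7 genes changed in CaPS (3.18% of genes, unadjusted 2, DESeq2 0), 0 in mCaPS (0.264%, unadjusted 0, DESeq2 0), 0 in libraries labelled KO (5.01%, unadjusted 2, DESeq2 2, which were Lhx1 and Evx1) and 0 of 4 in CaPS-R (4.76%, unadjusted 1, DESeq2 0). Of the 24 groups of the 4 lines, the 3 highest Lhx1 means were on NPC day 8, with CaPS at 116 ± 105 CPM and libraries labelled KO at 112 ± 67.2 CPM, within an SD of each other, below WT at 214 ± 52.2 CPM (SD). The neural progenitor list rose with it. By day 6 in WT, where 37.3% of genes changed, 7 of its 10 genes rose, among them Sox1 (5.12), Pax6 (5.10) and Zic1 (5.90). Between days 6 and 8, where 4.59% of genes rose, 5 of 10 did, among them Dcx (4.65), a protein of young neurons. Lhx5, its close paralog, rose by 5.80 and the antisense neighbour Lhx1os by 3.54 between days 6 and 8.

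**Figure D3:**
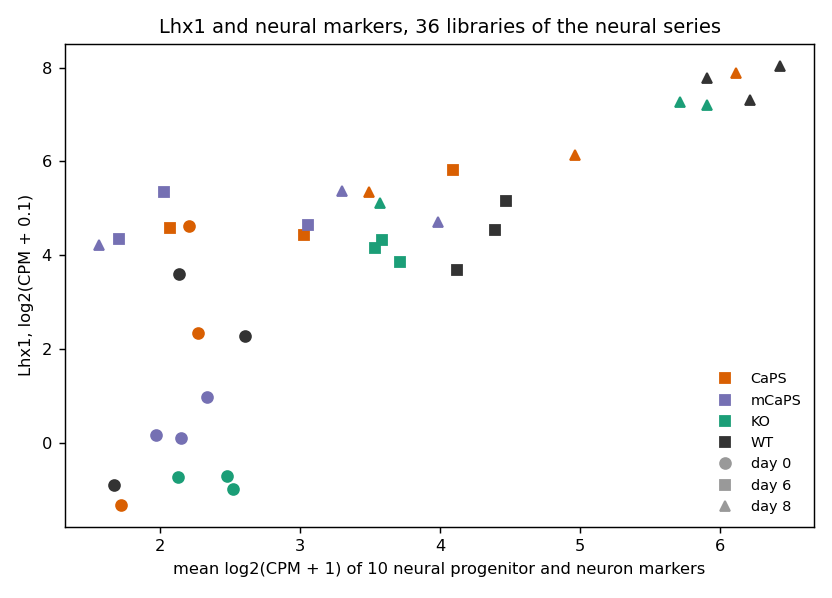
Lhx1 level against the mean log2 of CPM plus 1 of 10 neural progenitor markers in the 36 NPC libraries of 4 lines. On day 8 the mCaPS libraries hold 18.6 to 41.2 CPM of Lhx1 with a list mean of 1.57 to 3.99, and the WT libraries 158 to 262 CPM with a list mean of 5.91 to 6.43.

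Set directly against EB, WT NPC cells of day 6 held less of 5 of the 8 genes, Mesp1 left aside, in a joint fit where 20.6% of 18407 genes differed and 9.55% were lower. The differences were −7.57 for T (adjusted p = 0.00020), −5.86 for Eomes (adjusted p = 4.0e-06), −5.64 for Mixl1 (adjusted p = 0.00082), −5.06 for Gsc (adjusted p = 0.0018) and −4.77 for Evx1 (adjusted p = 0.0025). Mesp1 also passed (adjusted p = 0.021) but is not counted. It failed the filter on low counts in the NPC series and entered this fit through EB libraries, so the filter favoured a lower NPC value. With 2 counts in all 3 NPC libraries together no ratio is given. Its call was lost without EB day 6 replicate 2 or NPC day 6 replicate 1 or 2 (adjusted p = 0.23, 0.082 and 0.094). Lhx1 (−0.55, SE 0.97, adjusted p = 0.74) and Mesp2 (−0.43, adjusted p = 0.73) did not differ by the test. The same 5 genes, and Mesp1, were called without the 6 EB libraries that stood apart. That setting leaves out EB WT day 6 replicate 1, the lowest of its group. The change from day 0 to day 6 was lower in NPC than in EB for 5 of 8 genes (5.97% of genes differed, 2.61% lower), namely T, Mixl1, Eomes, Gsc and Evx1. The 2 series differ in culture protocol and in the Gapdh level of their WT libraries, and these cannot be told apart.

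**Figure D4:**
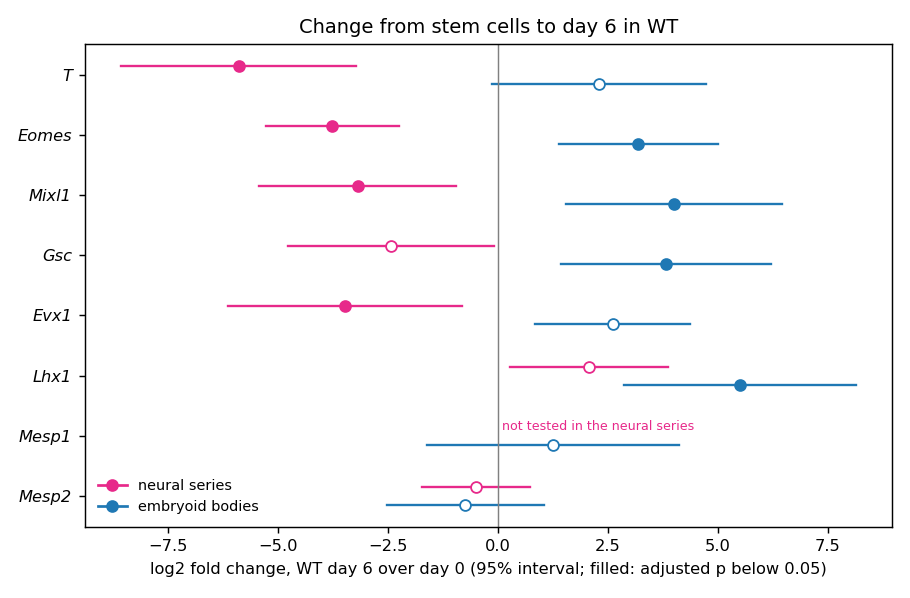
Change of each gene in WT cells from day 0 to day 6, as log2 ratio with its 95% interval, in NPC (pink, above) and EB (blue, below); filled symbols have an adjusted p below 0.05. The NPC points of T, Eomes, Mixl1, Evx1 and Gsc lie left of 0 (−5.87 for T) and their EB points right of 0, whereas Lhx1 lies right of 0 in both.

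The comparison of lines asked whether a form of CBX7 altered these genes. CaPS and WT did not differ by the test in 24 EB tests (unadjusted 1, DESeq2 0; 0%, 0% and 0.00562% of genes on days 0, 6 and 10) or in 21 NPC tests (unadjusted 0, DESeq2 0; 0%, 0% and 0.0112% on days 0, 6 and 8). For T on EB day 10, CaPS had 127, 94.8 and 16.2 CPM and WT 61.7, 54.4 and 106 CPM, a difference of 0.10 with a 95% interval of −2.21 to 2.40. For Eomes on that day it was 0.44 (−1.21 to 2.10). These values and intervals come from the fit without a replicate block, and the intervals span several-fold differences either way. Same-numbered CaPS and WT libraries met the rule for pairing, every correlation above 0.1, on every day. On day 6 they did so narrowly, with lowest correlations of 0.116 in EB and 0.118 in NPC. With the replicate block none of the CaPS over WT tests passed. CaPS over mCaPS gave 0 of 24 in EB (unadjusted 8, DESeq2 1; 0.793%, 1.12% and 3.18% of genes on days 0, 6 and 10) and 0 of 21 in NPC (unadjusted 3, DESeq2 1; 2.1%, 0.0112% and 1.59% on days 0, 6 and 8); both DESeq2 calls were Lhx1 on day 0.

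The widest gap between lines was in mCaPS stem cells of the EB series. On day 0, Lhx1 had 34.8, 16.1 and 23.0 CPM in mCaPS and 0.297, 1.19 and 0.640 CPM in WT. The groups did not overlap, and the difference was 5.08 (SE 1.27, adjusted p = 0.044), the only 1 of 8 genes called where 0.916% of genes differed and 0.281% were higher. T had 77.0, 59.7 and 72.03 CPM in mCaPS, Eomes 56.9, 44.4 and 27.2 CPM, Mixl1 17.0, 10.2 and 4.47 CPM, Gsc 5.91, 2.27 and 21.4 CPM and Evx1 5.03, 2.65 and 11.5 CPM, each above all 3 WT libraries. Their differences of 2.81 for T, 2.55 for Eomes, 3.69 for Mixl1, 4.63 for Gsc and 3.31 for Evx1 did not pass (adjusted p = 0.36, 0.21, 0.17, 0.057 and 0.069). DESeq2 called 5, Lhx1 with Eomes, Mixl1, Gsc and Evx1.

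The mCaPS call of Lhx1 was lost without mCaPS replicate 1 or 3 (adjusted p = 0.062 and 0.084), without any 1 WT library (0.14 to 0.22), with no filter on low counts (0.089) and without the 6 libraries that stood apart (4.78, adjusted p = 0.086). Replicate 3 of mCaPS held 88.7% Rn45s. Gapdh was at 35.8 to 38.9 CPM in mCaPS and at 13.2, 426 and 148 CPM in WT on day 0, so line and this difference between libraries cannot be told apart. Libraries labelled KO, at 32.2 to 39.0 CPM of Gapdh, had 15.6, 0.834 and 0.424 CPM of Lhx1 that day, all below the lowest mCaPS library. Sox17, an endoderm factor, was also higher in mCaPS on day 0 (4.03, adjusted p = 0.012). In the NPC series, day 0 of mCaPS had 1.02, 0.983 and 1.88 CPM of Lhx1 against 4.76, 0.442 and 11.998 CPM in WT, so the gap was not seen in the other set of stem cell libraries (−2.14, adjusted p = 0.23). On days 6 and 10 of EB 0 of 8 genes differed between mCaPS and WT (0.54% and 0.708% of genes). Over the 3 days, 8 of the 24 tests of mCaPS had an unadjusted p below 0.05 and DESeq2 called 5, all on day 0.

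In libraries labelled KO 0 of 24 EB tests passed (unadjusted 1, DESeq2 0; 0.641%, 0.646% and 0.877% of genes on days 0, 6 and 10). On NPC day 0 Lhx1 had 0.505, 0.411 and 0.514 CPM in libraries labelled KO and 4.76, 0.442 and 11.998 CPM in WT, ranges that overlap through WT replicate 2. The difference was −3.58 (SE 1.02, adjusted p = 0.037), 1 of 7 genes where 5.52% differed and 3.11% were lower, and it was lost without WT replicate 3 (−2.40, adjusted p = 0.17), WT replicate 1 (0.071) or any 1 library labelled KO (0.054 to 0.15), and with only these 2 groups or with no filter (0.085 and 0.061). Feeder markers were lower in the same comparison, with summed levels of 69.6 to 109 CPM in libraries labelled KO and 330 to 3291 CPM in WT, and their part in the difference was not tested. On NPC day 8 Lhx1 had 41.2, 26.0 and 18.6 CPM in mCaPS and 262, 220 and 158 CPM in WT, without overlap. The difference was −2.90 (SE 0.89, adjusted p = 0.024), the only 1 of 7 where 18.5% of genes differed and 9.06% were lower. It was lost without mCaPS replicate 2 or 3 or WT replicate 1 (adjusted p = 0.067, 0.12 and 0.077). In mCaPS 6 of 10 neural markers were lower on that day, Lhx5 was lower by 5.74 on the log2 scale, and 5 of 10 heart and lateral mesoderm genes were higher, Hand2 by 5.62. In NPC 0 of 7 genes differed from WT on the other days, with 3.02% and 2.22% of genes different in mCaPS on days 0 and 6 and 0.0281% and 0.0505% in libraries labelled KO on days 6 and 8. Over the 3 days, 2 of the 21 tests of mCaPS and 2 of the 21 of libraries labelled KO had an unadjusted p below 0.05, and DESeq2 called 1 of each. The difference of a line from WT in its change over time passed for 0 of 48 EB tests (unadjusted 8, DESeq2 3) and 0 of 42 NPC tests (unadjusted 2, DESeq2 0), where it passed for 0% to 0.00562% of genes in EB, 2.19% in mCaPS by day 6 of NPC, 0.129% in libraries labelled KO by day 6 of NPC and 0% in the other NPC tests.

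Ordered over the 24 groups of the 4 lines, T was highest in CaPS EB day 10 (79.4 ± 57.1 CPM, SD), WT EB day 10 (74.2 ± 28.1), mCaPS EB day 0 (69.6 ± 8.92) and mCaPS EB day 10 (59.8 ± 16.5), which did not differ beyond their spread, and lowest in CaPS NPC day 8 (0.0510 ± 0.0147). Eomes was highest in WT EB day 6 (67.3 ± 77.6 CPM) and lowest in mCaPS NPC day 8 (0.348 ± 0.228). Libraries labelled KO of EB day 10 held the highest mean of Mixl1 (15.1 ± 6.96 CPM), Evx1 (14.6 ± 6.45), Mesp1 (12.2 ± 17.8) and Mesp2 (3.85 ± 5.88). For Mixl1, Mesp1 and Mesp2 the next group lay within an SD, and for Evx1 it was mCaPS EB day 0 at 6.39 ± 4.58 CPM. The Mesp1 and Mesp2 means there come from replicate 1, at 32.7 CPM of Mesp1 and 10.6 CPM of Mesp2. Gsc was highest in mCaPS EB day 0 (9.86 ± 10.2 CPM). The lowest group of each gene was an NPC group.

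Genes of the inducing pathways were followed in the same cells. Of 9 inducing signals in WT EB, 0 rose and 1 fell by day 6, where 7.88% of genes changed and 3.26% rose. The 1 that fell was Bmp4 (−3.27), a ligand that induces mesoderm. Of 8 antagonists and feedback genes of WNT and NODAL, 2 rose, Dkk1 (3.48) and Nkd1 (2.11), both brakes on WNT signalling. Of 8 transducers 3 rose, the WNT effectors Lef1 (2.29) and Tcf7 (1.68) and the signal mediator Smad4 (0.82). Of 13 later factors of streak, mesoderm and endoderm 5 rose and 0 fell, among them Sox17 (4.76) and Foxa2 (3.95), factors of endoderm. The median change was 0.01 for the inducing signals and 2.36 for the later factors. Between day 6 and day 10, where 16.2% of genes changed, Bmp4 rose by 3.32. Tdgf1, a co-receptor of NODAL, fell by 2.68, Gdf3 by 3.70 and Fgf4 by 3.67, 3 of the 4 that fell. Later factors rose in 5 of 13, with Cdx2 (4.05) and Msgn1 (5.36), factors of posterior and presomitic mesoderm.

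By day 6 of WT NPC 37.3% of genes changed and 18.2% fell. There 8 of 9 inducing signals fell, among them Tdgf1 (−7.41), Fgf4 (−5.54), Gdf3 (−4.60) and Nodal (−2.77), and 1 rose, Wnt3a (2.87). The change by day 6 was lower in NPC than in EB for 6 of the 9 and higher for 1 by the interaction test, where 5.97% of genes differed. Of 8 antagonists 4 fell, the NODAL antagonists Lefty1 (−5.12), Lefty2 (−5.76) and Cer1 (−6.03) and the WNT antagonist Notum (−3.72), and 2 rose, Nkd1 (3.54) and Axin2 (1.12), targets of WNT signalling that feed back on it. Of 12 later factors tested 6 rose and 0 fell, including Hoxb1 (8.17), a retinoic acid target, and Sox17 (5.79). Pluripotency genes fell by day 6 in 11 of 12 in WT NPC, where 37.3% of genes changed, and in 5 of 12 in WT EB, where 7.88% changed and 1 of the 12 rose. The change was lower in NPC than in EB for 4 of the 12 by the interaction test.

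Across the 24 group means of the 4 lines, the genes most like the mean of the 8 were Ppp1r14c (Pearson r = 0.93), Cer1 (0.92), Fgf8 (0.92) and Rtl8c (0.89), out of 17345 genes tested in both series; 7 of the first 10 stayed without the 6 libraries that stood apart. T was most like Fgf8 (0.98), a signal of the streak, Eomes most like Wnt8a (0.97), Mixl1 most like Wnt8a (0.94), Gsc most like Cer1 (0.92), Evx1 most like its antisense neighbour Evx1os (0.96), Lhx1 most like Shc2 (0.94), Mesp1 most like Kcnj5 (0.92) and Mesp2 most like Mrc1 (0.81). Whether the counting used strand is not stated, so reads of Evx1 and Evx1os may not be told apart. T, Eomes, Mixl1 and Gsc were alike among themselves, with r of 0.87 to 0.96 over their 6 pairs. The 21 pairs without Lhx1 ran from 0.33 to 0.96, and the 7 pairs with Lhx1 from −0.49 to 0.12. These group means share libraries, days and lines, and r describes them only.

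**Figure D5:**
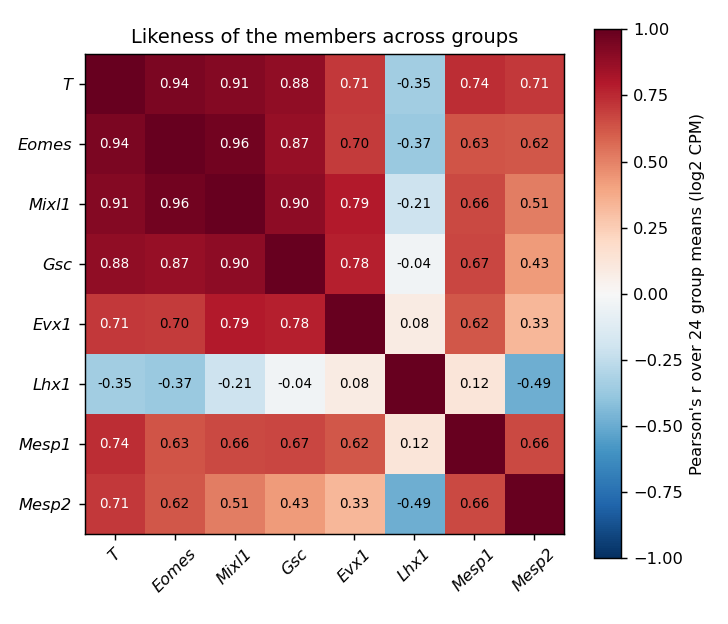
Pearson r between each pair of the 8 genes over 24 group means of the 4 lines in both series, in log2 CPM. The block of T, Eomes, Mixl1 and Gsc holds r of 0.87 to 0.96, and the row of Lhx1 holds −0.49 to 0.12.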

How the data were processed

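RNA was sequenced from 90 mouse libraries, 3 for each of 30 groups. The authors deposited raw counts of reads for each gene, 1 table per series for CaPS, mCaPS, KO and WT and 1 per series for CaPS-R. Per the submitters' processing notes, cutadapt 1.14, STAR 2.7.0, featureCounts 1.6.3, edgeR, HOMER 4.10.4 and the build mm10 were used, and their roles are not given in the sources used here. Rows named by a date in place of a gene (23 in EB, 22 in each table of CaPS-R) and the last line of each CaPS-R table were left out. A further EB count table, named hetCaPS, held 9 columns that matched none of the 90 libraries and was not used. None of 4005 pairs of libraries held identical counts.

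Groups were taken from the labels. The members and gene lists were chosen with earlier results of these data known. The tests used edgeR 4.0.16 in R 4.3.3 (filterByExpr, TMM, robust quasi-likelihood F test, two-sided, with limma 3.58.1), over 17791 EB genes, 17818 NPC genes, 13057 and 12763 in the 9-library CaPS-R fits and 18407 in the joint fit, with Benjamini-Hochberg adjustment over all genes tested. The fits of the 4 lines held 36 libraries in 12 groups. The SE was taken from the test, as the unshrunken log2 ratio divided by the square root of its F. Of the list genes that passed the test, at most the 4 with the lowest adjusted p are named per list and comparison, and all 8 members are named. In the NPC series Wnt3a, Cer1 and Axin2 were named after their values were seen. Settings changed in turn were DESeq2 1.42.0, its size factors, no filter on low counts, Rn45s left out, groups of the comparison only, a replicate block, the 6 EB libraries left out and each library left out. In the joint fit only the WT libraries of day 6 were left out in turn. Replicate numbers come from the labels. Same-numbered libraries deviated together, with every correlation above 0.1, in 14 of 44 compared pairs of groups (0.116 to 0.749), among them CaPS with WT on every day and the days of WT and of CaPS in EB, and were taken as paired there. Totals of counts per library limit the precision of low levels, and 3 counts served as the floor of a library with 0.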

Additional observations from a re-analysis of the deposited data

Results flagged for a closer look

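The change of WT cells from day 0 to day 6 differed between NPC and EB for 5 of the 8 genes by an interaction test in the joint edgeR fit. The change in NPC minus that in EB was −8.14 for T (adjusted p = 0.0034), −7.13 for Mixl1 (adjusted p = 0.0041), −6.92 for Eomes (adjusted p = 7.5e-05), −6.19 for Gsc (adjusted p = 0.013) and −6.03 for Evx1 (adjusted p = 0.011), all on the log2 scale. Gapdh levels also differed between the WT libraries of NPC and EB, and this cannot be told apart from the series. For Lhx1 it was −3.39, which did not pass (adjusted p = 0.19). Without EB WT day 6 replicate 2 the value of Gsc was −4.84 (adjusted p = 0.066) and that of Evx1 −4.58 (adjusted p = 0.071). Only day 6 libraries were left out in turn for this interaction test, and day 0 libraries were not.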

How the results depend on the processing

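Counts of the 8 genes called changed were recomputed for 58 comparisons under 7 alternatives and with each library left out. For the comparisons of NPC with EB only the WT libraries of day 6 were left out in turn. Counts that moved by over 1.5 times follow. DESeq2's size factors and the removal of Rn45s changed no count. With the DESeq2 test the count was 1 for EB CaPS day 6 over day 0, CaPS over mCaPS on day 0 in EB and in NPC, 2 for EB mCaPS day 6 over day 0, day 10 over day 6 and NPC KO day 8 over day 6, 3 for the EB mCaPS minus WT change from day 0 to 6, and 5 for EB mCaPS over WT on day 0. With only the groups of a comparison it was 0 for EB WT day 6 over day 0, EB KO day 10 over day 6 and NPC KO over WT on day 0, 1 for EB WT day 10 over day 6, EB KO and mCaPS day 6 over day 0 and NPC KO day 8 over day 6, 2 for EB mCaPS over WT on day 0 and NPC WT day 8 over day 6, and 5 for EB mCaPS day 10 over day 6. With no filter on low counts it was 2 for EB WT day 6 over day 0 and 0 for EB KO day 10 over day 6, EB mCaPS over WT on day 0, NPC KO over WT on day 0 and NPC WT day 8 over day 6. With the replicate block it was 2 for EB WT and NPC WT day 6 over day 0 and EB mCaPS over WT on day 0, 1 for EB CaPS, CaPS-R and mCaPS day 6 over day 0 and EB WT day 10 over day 6, and 0 for EB KO day 10 over day 6; its one other change was 3 for NPC KO day 6 over day 0, without Evx1 (adjusted p = 0.054). Without the 6 EB libraries of CaPS and WT numbered 1 it was 2 for EB mCaPS day 10 over day 6, 1 for EB mCaPS day 6 over day 0 and 0 for EB mCaPS over WT on day 0. With no filter the CaPS-R counts in EB were 2 for day 6 over day 0 and 4 for day 10 over day 6. The cause was not tested.

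Leaving out 1 library each gave 1 to 5 calls for EB WT day 6 over day 0 and 0 to 1 for day 10 over day 6; 0 to 3 for EB KO day 6 over day 0 and 0 to 2 for day 10 over day 6; 0 to 1 for EB mCaPS day 10 over day 6 and 0 to 3 for EB mCaPS over WT on day 0; 0 to 2 for EB CaPS-R day 6 over day 0 and 5 to 6 for day 10 over day 6. In NPC it gave 2 to 5 for WT day 6 over day 0 and 0 to 1 for day 8 over day 6, 4 to 6 for CaPS, 2 to 4 for KO and 1 to 3 for CaPS-R day 6 over day 0, and 0 to 1 for KO day 8 over day 6, KO over WT on day 0 and mCaPS over WT on day 8. It gave 5 to 6 for NPC over EB on day 6, Mesp1 included, and 3 to 5 for the difference in change. For that difference no day 0 library was left out, so its dependence on single day 0 libraries is not known. Of 48 calls of a gene in a comparison, 25 held under every alternative run, 33 under all but leaving out a library, and 0 reversed. Groups of 3 libraries with a wide spread, and 0 to 3 counts of Mesp1 and Mesp2 in some libraries, limit what these tests can show.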
